A study of Mus musculus with 8 samples.

Results

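The 10 cytosolic DNA and RNA sensing genes were examined in the right cerebral cortex of mice 3 weeks after sham surgery or bilateral carotid artery stenosis (BCAS). They were chosen by symbol from the 54752 genes of the count tables and comprised Cgas, Tmem173, Trex1 and Zbp1 on the DNA side, Ifih1, Ddx58, Dhx58 and Mavs on the RNA side, and the kinases Tbk1 and Ikbke. Some of these proteins detect nucleic acid where it should not be, in the cytosol, and the others act with them. On the DNA side, cGAS binds double-stranded DNA and makes the cyclic dinucleotide cGAMP, which activates the adaptor STING, the product of Tmem173, whereas the nuclease TREX1 degrades cytosolic DNA and ZBP1 binds Z-form nucleic acid and can engage cell death kinases. On the RNA side, MDA5 (Ifih1) and RIG-I (Ddx58) bind double-stranded RNA, LGP2 (Dhx58) modulates them, and all converge on the mitochondrial adaptor MAVS, after which TBK1 and IKKε (Ikbke) phosphorylate interferon regulatory factors and type I interferon genes are transcribed. In the brain, microglia are known as a cell type with an active cGAS and STING pathway, and several of the sensors are themselves interferon-inducible.

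The libraries came from 8 wild-type (WT) adult male C57BL/6 mice (C57BL/6 J in the methods), 4 in the Sham group and 4 in the BCAS group, with 1 mouse per library. In BCAS, wire microcoils around both common carotid arteries narrow the vessels and lower the blood flow to the brain for weeks. Sham mice had the operation without the coils, and the right side, which was sampled, received the narrower of the paired coils. The total counts ranged from 16759364 to 21794435 per library, and expression is given as CPM, that is, read-pair counts brought to a common library total after edgeR's TMM scaling, with factors from 0.949 to 1.05. A gene without counts may still be present at up to 0.187 CPM in the library with the smallest scaled total, the value of 3 counts there, a limit that covers counting error only. Genes were called higher or lower in BCAS mice at a Benjamini-Hochberg adjusted p under 0.05 over the 17136 tested genes and an absolute log2 fold change above 1, with edgeR's quasi-likelihood test. The defining markers of cortical excitatory neurons, Cux2 and Neurod6, were present in every library, with summed levels of 145 to 188 CPM in sham mice and 56.2 to 139 CPM in BCAS mice. In sham mouse 3 the choroid plexus markers summed to 767 CPM, against 13.5 to 49.5 CPM in the other sham mice.

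Of the 10 genes, 9 had enough counts to be tested and 8 rose in BCAS mice (88.9% of those tested), beside 11.0% of all tested genes called higher. None fell, beside 1.28% of all tested genes called lower. In the same 8 genes every BCAS mouse lay above every sham mouse, which was seen in 18.4% of all tested genes. The mean CPM of the 8 genes was between 2.45 times (Mavs) and 33.7 times (Zbp1) its sham value. The ninth tested gene, Tbk1, did not pass the test, and the tenth, Trex1, could not be measured in these counts. When edgeR tested for a log2 fold change beyond 1, 5 of the 8 stayed called, and Cgas, Ifih1 and Mavs did not. The median log2 fold change over the 9 tested genes was 2.40, with quartiles of 1.72 and 2.73, whereas that over all tested genes was -0.01, with quartiles of -0.30 and 0.40. In bulk tissue, a change in how many cells of a type were present and a change in the RNA of each cell cannot be told apart.

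Promoter sequences are shown for the members whose sequence bears on a common question, whether genes that moved together hold the letters to which interferon-activated factors bind. RefSeq promoter windows (GRCm38.p6), which run from 250 bases before to 50 bases after a start site, were matched to 7 of the 10 genes. Tmem173, Zbp1 and Dhx58 had no window, while the 7 include Trex1, which was not measured, and Tbk1, which did not pass the test. The core of the interferon-stimulated response element, GAAANNGAAA, was searched on both strands, and 1131 of 32851 mouse windows of the same length (3.44%) hold it. Among the 7 genes, the windows of Ifih1 and Ddx58 hold it. A second motif, the STAT-type palindrome TTCNNNGAA, occurs in 8.3% of all windows and in none of those of the 7 genes. The windows of Ifih1 and Ddx58 are given with the match in capitals, followed by those of Ikbke and Tbk1, the related kinases of which one rose and the other did not pass the test. All are written 5′ to 3′ on the strand of the gene.
Ifih1 promoter, chr2:62646206-62646505, minus strand: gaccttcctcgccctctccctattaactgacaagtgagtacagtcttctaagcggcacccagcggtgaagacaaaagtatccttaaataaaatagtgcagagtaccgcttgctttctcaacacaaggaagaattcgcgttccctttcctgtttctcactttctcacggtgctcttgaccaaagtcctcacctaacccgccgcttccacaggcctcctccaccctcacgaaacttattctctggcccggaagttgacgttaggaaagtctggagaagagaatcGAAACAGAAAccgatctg
Ddx58 promoter, chr4:40239776-40240075, minus strand: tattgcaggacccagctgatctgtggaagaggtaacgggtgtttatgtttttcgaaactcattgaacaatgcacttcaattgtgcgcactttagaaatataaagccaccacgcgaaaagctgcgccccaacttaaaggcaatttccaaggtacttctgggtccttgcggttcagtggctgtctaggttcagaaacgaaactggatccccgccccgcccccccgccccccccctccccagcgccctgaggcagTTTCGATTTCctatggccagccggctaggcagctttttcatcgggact
Ikbke promoter, chr1:131279514-131279813, minus strand: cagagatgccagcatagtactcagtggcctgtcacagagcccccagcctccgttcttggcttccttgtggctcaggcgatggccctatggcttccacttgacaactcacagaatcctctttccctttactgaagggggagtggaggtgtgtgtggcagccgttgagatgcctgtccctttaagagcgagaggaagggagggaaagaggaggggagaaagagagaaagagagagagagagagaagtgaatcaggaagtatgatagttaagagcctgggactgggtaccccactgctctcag
Tbk1 promoter, chr10:121586745-121587044, minus strand: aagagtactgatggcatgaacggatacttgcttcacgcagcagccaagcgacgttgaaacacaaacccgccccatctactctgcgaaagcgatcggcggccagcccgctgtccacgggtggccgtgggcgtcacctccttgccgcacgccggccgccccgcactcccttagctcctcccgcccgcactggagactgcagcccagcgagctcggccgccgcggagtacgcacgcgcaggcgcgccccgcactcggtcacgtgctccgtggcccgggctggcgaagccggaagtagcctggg
In Ifih1 the match GAAACAGAAA covers bases 33 to 42 after the start site on the strand of the gene. In Ddx58 the match lies on the opposite strand and reads TTTCGATTTC here, at bases 3 to 12 after the start site. A match is a description of the letters only, and the lack of one says nothing of other stretches of a gene.

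**Figure D1:**
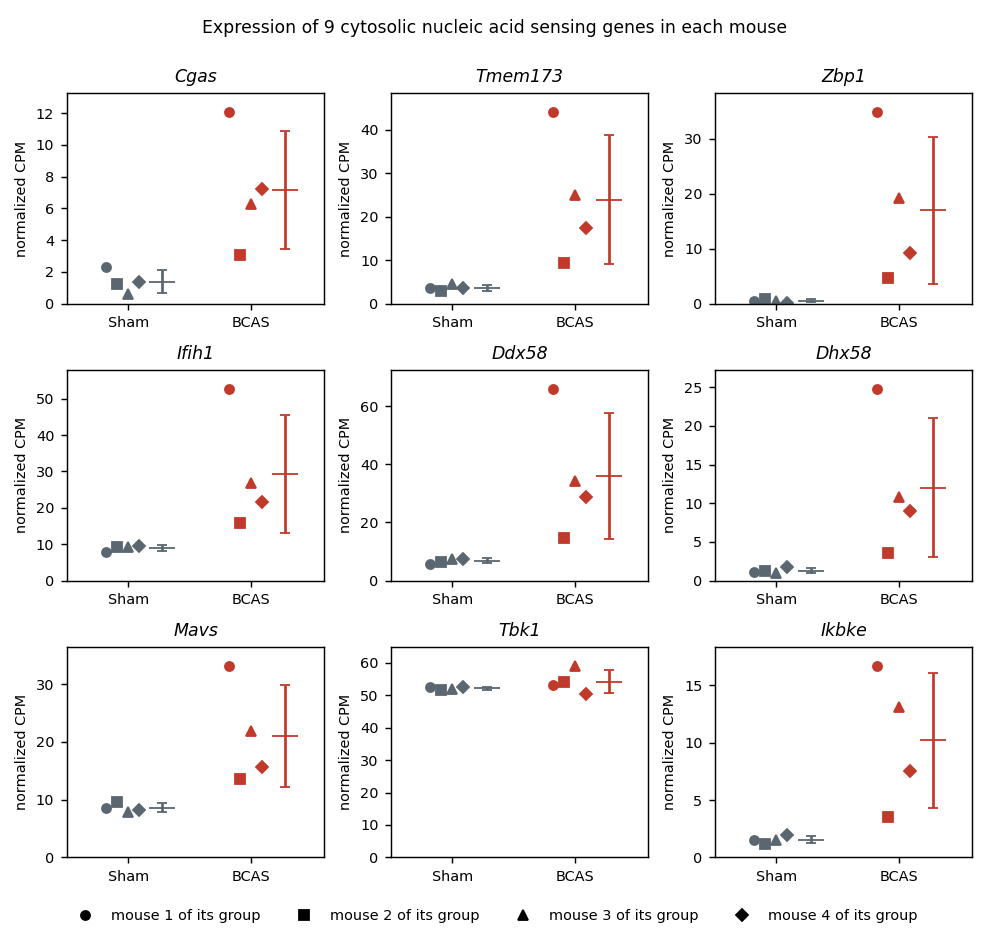
Normalized CPM (vertical axes, linear, starting at 0) of the 9 tested sensing genes in each of the 4 Sham (grey) and 4 BCAS (red) mice, with the group mean and SD beside the points. In 8 of the 9 panels every BCAS mouse lies above every sham mouse, with BCAS mouse 1 highest and BCAS mouse 2 lowest, and in Tbk1 the groups overlap.

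The 3 measured genes of the DNA sensing arm rose from low sham levels. Cgas (ENSMUSG00000032344.17, mm10 chr9:78430526-78443237, minus strand), the enzyme that makes cGAMP on contact with DNA, had 2.33, 1.25, 0.628 and 1.39 CPM in sham mice 1 to 4 and 12.05, 3.09, 6.25 and 7.23 CPM in BCAS mice 1 to 4. The groups did not overlap, although BCAS mouse 2 came close to sham mouse 1. The mean went from 1.40 ± 0.702 to 7.15 ± 3.71 CPM (SD, n = 4 each), a log2 fold change of 2.35 ± 0.48 (SE, edgeR adjusted p = 0.00921). Cgas rested on 11 to 41 read pairs per sham library, and 4.87% of its exon bases are shared with Gm8093 on the opposite strand.

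Tmem173 (ENSMUSG00000024349.9, chr18:35733678-35740554, minus strand), which encodes STING, the adaptor that binds cGAMP at the endoplasmic reticulum, had 3.57, 2.87, 4.57 and 3.56 CPM in the sham mice. In the BCAS mice it had 44.0, 9.31, 25.1 and 17.4 CPM. The lowest BCAS mouse lay well above the highest sham mouse. The mean rose from 3.64 ± 0.701 to 23.9 ± 14.9 CPM (SD, n = 4 each), with a log2 fold change of 2.72 ± 0.44 (SE, edgeR adjusted p = 0.00410). Without BCAS mouse 1 the log2 fold change was 2.25.

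Zbp1 (ENSMUSG00000027514.14, chr2:173206612-173218923, minus strand), a sensor of Z-form nucleic acid that can recruit RIPK3, was at 0.454, 0.810, 0.571 and 0.181 CPM in the sham mice, or 8, 13, 10 and 3 read pairs. The last of these is at the limit that a count of 0 allows. In BCAS mice it reached 34.8, 4.68, 19.3 and 9.14 CPM, or 794, 91, 358 and 168 read pairs. Every BCAS mouse was far above every sham mouse, and the spread among the BCAS mice was wide, with BCAS mouse 1 at several times BCAS mouse 2. The mean rose from 0.504 ± 0.262 to 17.0 ± 13.4 CPM (SD, n = 4 each) and the log2 fold change was 5.06 ± 0.71 (SE, edgeR adjusted p = 0.00280), the largest among the 9 tested members. Without BCAS mouse 1 it was 4.45. No exon base of Zbp1 or Tmem173 is shared with another gene.

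Trex1 (ENSMUSG00000049734.9, chr9:109057933-109059734, minus strand), the exonuclease that removes cytosolic DNA, had 0 counts in all 8 libraries. In the annotation used for counting, 100% of its exon bases also belong to Atrip on the same strand, and the recorded counting call had no option to count a read pair that falls on more than 1 gene. The level of Trex1 was therefore not measured, and the 0 is no sign of an unexpressed gene. Atrip, a partner of the checkpoint kinase ATR, passed the filter with 21.0 ± 1.12 CPM in sham and 20.0 ± 2.07 CPM in BCAS mice (SD, n = 4 each) and a log2 fold change of -0.07 ± 0.10 (SE, edgeR adjusted p = 0.591).

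The RNA receptors rose as well, from higher sham counts with a small spread. Ifih1 (ENSMUSG00000026896.14, chr2:62595798-62646255, minus strand), the receptor MDA5 for long double-stranded RNA, had 7.77, 9.35, 9.14 and 9.46 CPM in sham and 52.6, 15.9, 26.9 and 21.6 CPM in BCAS mice. No sham mouse reached the level of the lowest BCAS mouse. The mean rose from 8.93 ± 0.782 to 29.3 ± 16.2 CPM (SD, n = 4 each), a log2 fold change of 1.72 ± 0.33 (SE, edgeR adjusted p = 0.00817). Ddx58 (ENSMUSG00000040296.15, chr4:40203773-40239828, minus strand), the receptor RIG-I for RNA with a 5′ triphosphate end, had 5.79, 6.36, 7.48 and 7.53 CPM in sham and 65.9, 14.6, 34.2 and 28.9 CPM in BCAS mice. It stood below Ifih1 in CPM in every sham mouse and above it in BCAS mice 1, 3 and 4, a statement on read pairs that takes no account of transcript length. The mean of Ddx58 rose from 6.79 ± 0.861 to 35.9 ± 21.7 CPM (SD, n = 4 each), with a log2 fold change of 2.40 ± 0.40 (SE, edgeR adjusted p = 0.00470).

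Dhx58 (ENSMUSG00000017830.15, chr11:100694884-100704271, minus strand) encodes LGP2, a relative of both receptors that binds RNA but lacks their signalling domains. It had 1.13, 1.18, 0.971 and 1.75 CPM in sham and 24.8, 3.55, 10.8 and 9.03 CPM in BCAS mice, without overlap. Its mean rose from 1.26 ± 0.338 to 12.03 ± 9.03 CPM (SD, n = 4 each), a log2 fold change of 3.26 ± 0.56 (SE, edgeR adjusted p = 0.00502), the largest on the RNA side. Without BCAS mouse 1 it was 2.64. Dhx58os on the opposite strand shares 4.31% of its exon bases, and the counting call gave no strand option.

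Mavs (ENSMUSG00000037523.13, chr2:131234063-131248025, plus strand), the adaptor on the outer mitochondrial membrane through which both receptors signal, had 8.63, 9.66, 7.82 and 8.26 CPM in sham and 33.2, 13.6, 21.9 and 15.6 CPM in BCAS mice. The groups stayed apart, with a smaller gap than for the receptors. Its mean rose from 8.59 ± 0.784 to 21.1 ± 8.80 CPM (SD, n = 4 each), and its log2 fold change of 1.30 ± 0.26 (SE, edgeR adjusted p = 0.00946) was the smallest of the 8 genes that rose. Without BCAS mouse 1 it was 1.00.

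The kinases that act below both adaptors parted. Tbk1 (ENSMUSG00000020115.3, chr10:121546455-121586787, minus strand), the broadly expressed kinase of the pair, had 52.4, 51.7, 52.0 and 52.6 CPM in sham and 53.1, 54.3, 59.0 and 50.5 CPM in BCAS mice. The groups overlapped, since BCAS mouse 4 was below all sham mice. With means of 52.2 ± 0.433 and 54.2 ± 3.57 CPM (SD, n = 4 each), the log2 fold change was 0.06 ± 0.07 (SE, edgeR adjusted p = 0.559). Tbk1 had 829 to 1212 read pairs per library, the most of any member over the 8 libraries together, and the smallest SE of the 9.

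Ikbke (ENSMUSG00000042349.13, chr1:131254343-131279606, minus strand), the inducible relative of Tbk1 that is best known from immune cells, had 1.48, 1.18, 1.54 and 1.93 CPM in sham and 16.7, 3.50, 13.1 and 7.50 CPM in BCAS mice. Here all BCAS mice were above all sham mice. The mean rose from 1.53 ± 0.306 to 10.2 ± 5.85 CPM (SD, n = 4 each), with a log2 fold change of 2.73 ± 0.46 (SE, edgeR adjusted p = 0.00476). Gm28913 and Gm28914 on the opposite strand share 2.48% of its exon bases.

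**Figure D2:**
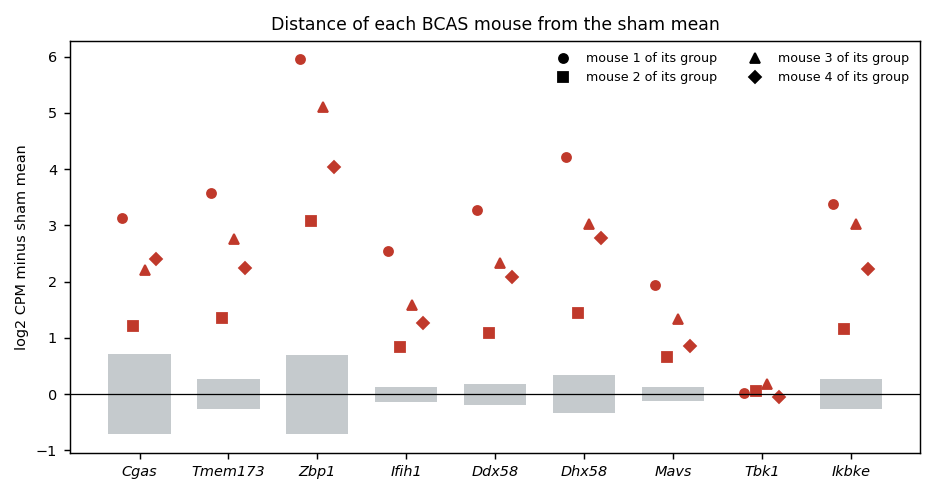
Distance of each BCAS mouse from the sham mean in log2 CPM (vertical axis) for the 9 tested genes, with the grey boxes giving 1 SD of the sham mice to either side of their mean at 0. BCAS mouse 1 is highest and BCAS mouse 2 lowest in the 8 genes that rose, while the 4 points of Tbk1 lie between -0.05 and 0.18.

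The BCAS mice kept the same extremes in each of the 8 genes that rose. BCAS mouse 1 was highest in 8 of 8 and BCAS mouse 2 lowest in 8 of 8, as the plot of distances from the sham mean shows. Among the marker sums given below, those of microglia and astrocytes had the same extremes. The neuronal sum had them reversed, and the striatal and choroid plexus sums were highest in BCAS mouse 4. The share of all tested genes with these extremes was not counted. The median distance from the sham mean over the 8 genes was 3.32, 1.18, 2.55 and 2.24 log2 units in BCAS mice 1, 2, 3 and 4. The smallest single distance was that of Mavs in BCAS mouse 2, at 0.66. The genes were read from the same 4 libraries and are not independent of each other, and BCAS mouse 1 also had the largest library. The SD among BCAS mice on the log2 CPM scale was 1.12 (Cgas) to 5.60 (Ifih1) times the sham SD in these genes, and 1.77 times for Zbp1. Leaving out any single mouse left all 8 calls in place, with log2 fold changes from 1.99 to 2.71 for Cgas, 2.25 to 3.00 for Tmem173 and 4.45 to 5.39 for Zbp1.

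Markers of other cell types also differed between the groups. The 9 microglial markers, Csf1r, Cx3cr1, P2ry12, Tmem119, Aif1, Itgam, Fcrls, C1qa and Trem2, all rose, and their summed level went from 294 to 353 CPM in sham mice to 1302 to 4901 CPM in BCAS mice, 8.85 times by the group means. None was at 0. BCAS mouse 1 was again highest and BCAS mouse 2 lowest. The single markers' log2 fold changes ran from 1.80 to 4.34. Of the 8 sensing genes that rose, Cgas, Tmem173, Ikbke, Ddx58 and Dhx58 lay within that range, Zbp1 above it at 5.06 ± 0.71 (SE), and Ifih1 and Mavs below it at 1.72 ± 0.33 and 1.30 ± 0.26. Summed markers of border macrophages went from 13.4 to 16.1 CPM in sham to 23.6 to 61.2 CPM in BCAS mice, with 3 of 5 called higher. Those of monocytes and neutrophils went from 0.723 to 1.4955 CPM to 3.55 to 80.8 CPM, while Ly6g, a defining neutrophil marker, was at 0 in all libraries. B lymphocyte markers summed to 0.362 to 0.810 CPM in sham and 0.977 to 13.8 CPM in BCAS mice, with none of the 3 abundant enough to be tested. Markers of T and natural killer cells went from 5.43 to 12.1 CPM to 5.45 to 40.0 CPM, and these sums overlapped. Of the 2 tested, 1 rose (log2 fold change 5.77) and the other had -0.67. Cd3e, Cd3g, Nkg7 and Gzmb were too low to be tested, with at most 3, 1, 1 and 2 read pairs in a sham library. In BCAS libraries they had 5 to 139, 2 to 147, 3 to 123 and 5 to 60 read pairs. The sum of the markers listed for dendritic cells went from 21.8 to 26.3 CPM to 53.4 to 143 CPM. Siglech carried most of it and was called higher at a log2 fold change of 2.23, within the range of the microglial markers. Flt3 was at -0.14 ± 0.21 (SE, edgeR adjusted p = 0.642) and Xcr1 was too low to be tested. The rise of this sum is mainly that of Siglech and was not read as one of dendritic cells. The astrocyte sum went from 1218 to 1322 CPM to 2317 to 5738 CPM, with Gfap and Aqp4 called higher of 5 and the other 3, Aldh1l1, Slc1a3 and Gja1, higher by adjusted p alone. In all 5 the groups did not overlap. Neuronal markers summed to 7277 to 8825 CPM in sham and 2662 to 6116 CPM in BCAS mice, with Snap25 called lower and the other 5 lower by adjusted p alone. No oligodendrocyte, endothelial, pericyte, striatal or choroid plexus marker was called, but 2 endothelial, 1 pericyte and 1 striatal marker were higher by adjusted p alone. The striatal sum was 351 CPM in BCAS mouse 4, against 157 to 172 CPM in the other BCAS mice and 130.1 to 219 CPM in sham mice. The part of these cell types in the levels of the sensing genes was not tested.

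**Figure D3:**
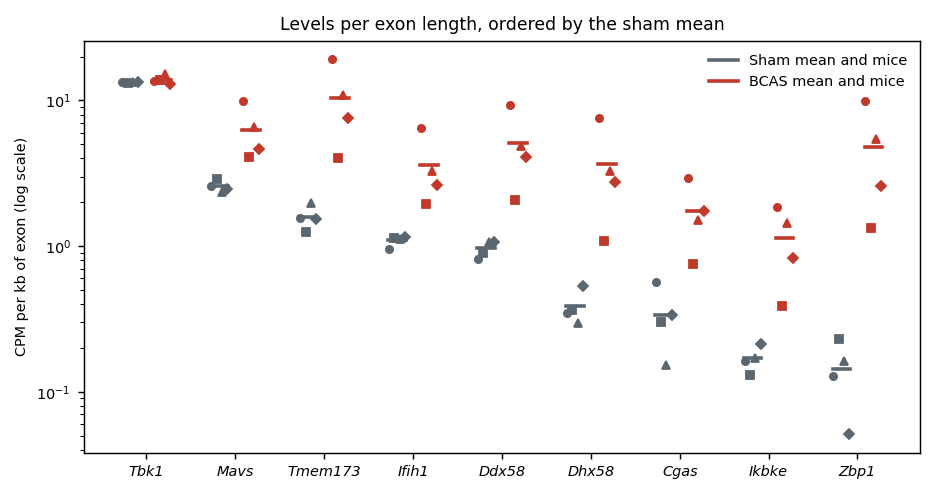
Levels per kilobase of exon (CPM per kb, log axis) of the 9 tested genes, ordered by the sham mean, with the 4 mice of each group as points and the group means as lines. Tbk1 leads at 13.3 in sham and 13.9 in BCAS mice, and the other genes are spread from 0.143 to 2.57 in sham and from 1.13 to 10.4 in BCAS mice.

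Between genes, levels were compared per kilobase of exon, with the exon lengths of the count tables. Tbk1 led in sham cortex at 13.3 ± 0.111 CPM per kb (SD, n = 4), 5.19 times the next gene. Mavs followed at 2.57, Tmem173 at 1.58, Ifih1 at 1.09, Ddx58 at 0.963, Dhx58 at 0.385, Cgas at 0.339, Ikbke at 0.170 and Zbp1 at 0.143 CPM per kb. The ranges of neighbouring genes over the mice overlapped for Ifih1 and Ddx58 and along the row from Dhx58 through Cgas and Ikbke to Zbp1. Within single mice, Ifih1 was above Ddx58 in 4 of 4, and each neighbour in that row was above the next in 3 of 4. The adaptors of both arms stood above the sensors that feed them in sham cortex.

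In BCAS cortex the order was Tbk1 at 13.9, Tmem173 at 10.4, Mavs at 6.30, Ddx58 at 5.09, Zbp1 at 4.81, Dhx58 at 3.68, Ifih1 at 3.58, Cgas at 1.73 and Ikbke at 1.13 CPM per kb. Zbp1 went from the last place to the fifth and Ifih1 from the fourth to the seventh. The ranges of all neighbours in the BCAS order overlapped. Within single mice, Mavs was above Ddx58, Ifih1 above Cgas and Cgas above Ikbke in 4 of 4, while Ddx58 was above Zbp1 and Dhx58 above Ifih1 in 2 of 4 and the remaining neighbours kept the order in 3 of 4. In BCAS mouse 1 alone, Tmem173 at 19.1 CPM per kb exceeded the level that Tbk1 reached in any mouse, which was at most 15.1.

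Ratios between members within a library do not depend on its depth or scaling, and 5 were compared between the groups. The test was an exact permutation of the group labels, 2-sided, with all 70 ways to assign them, and p was adjusted over the 5 ratios by Benjamini-Hochberg. The smallest p that 4 against 4 mice allow is 0.0286. The sixth ratio laid down, Trex1 to Cgas, has no value since Trex1 had no counts. All are ratios of read pairs and not of molecules.

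The kinase ratio had the largest difference of the 5. Ikbke to Tbk1 was 0.0287, 0.0235, 0.0302 and 0.0372 in sham and 0.315, 0.0649, 0.222 and 0.149 in BCAS mice, with every BCAS mouse above every sham mouse. Its mean log2 value was 2.45 higher in BCAS mice (exact permutation p = 0.0286, adjusted p = 0.0357).

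On the RNA side, the regulator and the receptors gained on the genes they act with. Dhx58 to Ifih1 was 0.149, 0.130, 0.109 and 0.187 in sham and 0.471, 0.224, 0.401 and 0.419 in BCAS mice, a log2 difference of 1.37. Ddx58 to Mavs was 0.672, 0.659, 0.956 and 0.913 in sham and 1.99, 1.07, 1.56 and 1.85 in BCAS mice, a log2 difference of 1.00. Both were apart in every mouse, and so was Ifih1 to Mavs, if barely. That ratio was 0.902, 0.968, 1.17 and 1.15 in sham and 1.59, 1.17, 1.23 and 1.38 in BCAS mice, so that sham mouse 3 and BCAS mouse 2 nearly met, and its log2 difference was 0.36. Each of these 3 differences had an exact permutation p of 0.0286 and an adjusted p of 0.0357. With any sham mouse left out the adjusted p was 0.0714 for all 4 ratios that moved, and for Ifih1 to Mavs it was 0.1429 without BCAS mouse 1 and 0.0714 without BCAS mouse 4.

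On the DNA side, no shift between sensor and adaptor was detectable with these 8 mice. Cgas to Tmem173 was 0.654, 0.441, 0.143 and 0.395 in sham and 0.274, 0.333, 0.250 and 0.417 in BCAS mice. The groups overlapped, and the log2 difference of -0.19 (exact permutation p = 0.7143, adjusted p = 0.7143) was small beside the sham SD of 0.93. Sham mouse 3, with 11 Cgas read pairs, had the lowest ratio. Without it the log2 difference was -0.63 (exact permutation test, adjusted p = 0.0857), and without sham mouse 1 it turned to 0.10 (adjusted p = 0.8857).

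**Figure D4:**
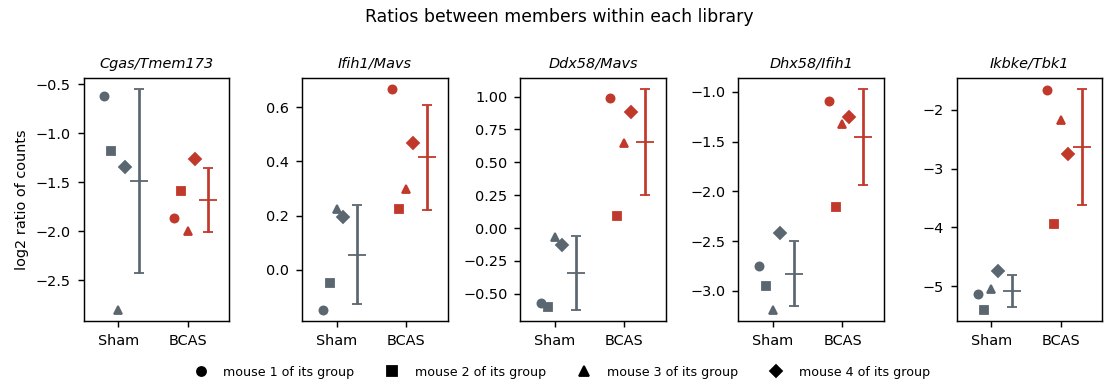
Log2 ratios of the counts of 5 pairs of members within each library (vertical axes, each with its own range), with the group mean and SD beside the mice. The 4 ratios other than Cgas to Tmem173 are higher in every BCAS mouse than in every sham mouse.

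The genes that act with the members were taken from 6 lists by role, 89 genes in all, of which 85 were tested. Of these, 31 rose, none fell, and 11 more were higher by adjusted p without reaching the fold threshold. By adjusted p alone, 42 of the 85 (49.4%) were thus higher, beside 19.2% of all tested genes, and 0 were lower, beside 12.8%. When edgeR tested for a log2 fold change beyond 1, 19 of the 85 were called higher in place of 31. With edgeR, 5 of the 85 were lower at an unadjusted p under 0.05, and DESeq2, limma-voom and limma on log2(CPM + 1) called none lower either, with 6, 5 and 4 lower at an unadjusted p under 0.05. By adjusted p alone, DESeq2 had 2 of them lower and limma on log2(CPM + 1) had 1. Every BCAS mouse lay above every sham mouse in 41 of the 85, beside 18.4% of all tested genes, and below in 2 of the 85, beside 16.4%. The 2 were Trim32 and Dhx36, with log2 fold changes of -0.59 ± 0.21 (SE, edgeR adjusted p = 0.0558) and -0.16 ± 0.07 (SE, edgeR adjusted p = 0.0911). The median log2 fold change was 0.40, against -0.01 over all tested genes and 2.40 over the members. By role, the share called higher ran from 18.8% of the kinase scaffolds and transcription factors to 100% of the ZBP1 partners, beside the same 11.0% of all tested genes, and the roles were not tested against each other.

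**Figure D5:**
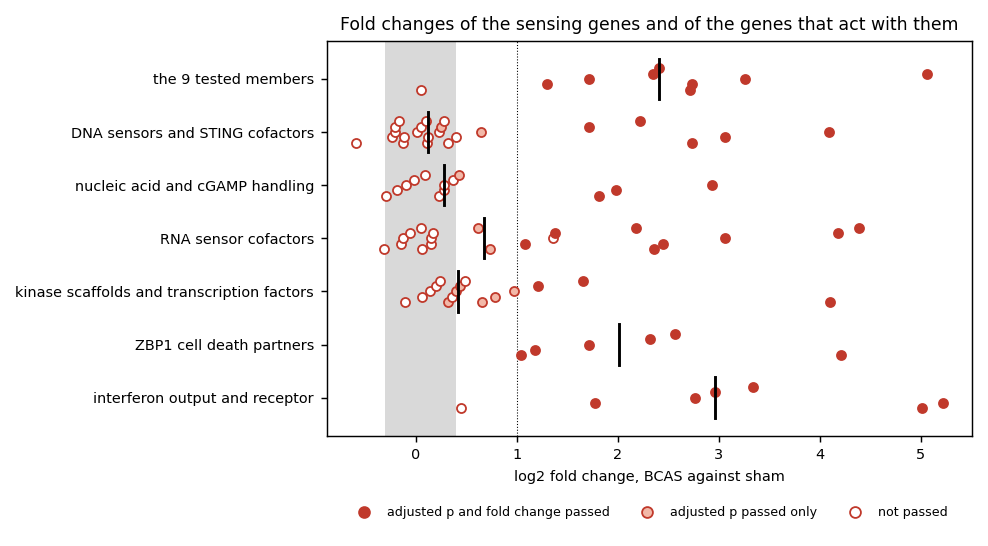
Log2 fold changes (horizontal axis, BCAS against sham) of the 9 tested members and of 6 lists of genes that act with them, 1 point per gene, filled by the test it passed. The vertical bars are list medians, the dotted line marks a log2 fold change of 1 and the grey band spans the quartiles of all tested genes, -0.30 to 0.40. All 6 ZBP1 partners lie past the dotted line, whereas most DNA sensor cofactors lie within or near the band.

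Among the other DNA sensors and the cofactors of STING, 5 of 23 rose (21.7%, beside 11.0% of all tested genes). Another 2, G3bp1 and Surf4, were higher by adjusted p alone. The 5 were Trim56, Trim30a, Aim2, Nlrc3 and Rhbdf2. Aim2, the DNA sensor that assembles an inflammasome, rose from 3.29 ± 0.594 to 21.9 ± 11.4 CPM (SD, n = 4 each), a log2 fold change of 2.74 ± 0.37 (SE, edgeR adjusted p = 0.00254). Trim56, a ubiquitin ligase that acts on cGAS and STING, rose by a log2 fold change of 1.72 ± 0.21 (edgeR adjusted p = 0.00195). Trim30a, a ligase reported to restrain STING, rose by 4.09 ± 0.50 (edgeR adjusted p = 0.00198), with the caution that it has close relatives next to it in the genome. In contrast to Aim2, the helicase Ddx41 had 30.8 ± 3.35 CPM in sham and 31.0 ± 3.22 CPM in BCAS mice and a log2 fold change of 0.01 ± 0.11 (edgeR adjusted p = 0.949). It shares 17.4% of its exon bases. The list median was 0.12.

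Among the enzymes and carriers that handle nucleic acid and cGAMP, 3 of 13 tested genes rose (23.1%, beside 11.0% of all tested genes). The list median was 0.28. Dnase2a, the lysosomal nuclease that digests engulfed DNA, went from 4.21 ± 1.31 to 32.3 ± 15.2 CPM (SD, n = 4 each), a log2 fold change of 2.94 ± 0.38 (SE, edgeR adjusted p = 0.00214), and 30% of its exon bases are shared with other genes. Samhd1, which breaks down deoxynucleotides, rose by 1.82 ± 0.34 (edgeR adjusted p = 0.00673). Enpp1, which hydrolyses extracellular cGAMP, was called as well (log2 fold change 1.98 ± 0.46, edgeR adjusted p = 0.0156), although BCAS mouse 2 was below sham mouse 4 at 11.6 CPM. The exporter Abcc1 was higher by adjusted p alone, at 0.43 ± 0.08 (edgeR adjusted p = 0.00848). The RNA helicase Skiv2l did not pass (-0.01 ± 0.07, edgeR adjusted p = 0.915). Dnase1l3 and Slc46a2 were too low to be tested, with at most 17 and 1 read pairs in a library.

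Of the 20 cofactors and companions of the RNA sensors, 8 rose (40%, beside 11.0% of all tested genes), with a list median of 0.68. They were Oasl1, Zc3hav1, Eif2ak2, Trim25, Rnf135, Rnf125, Ddx60 and Nlrc5. Trim25 and Rnf135 encode ubiquitin ligases that act on RIG-I, and they rose from 11.0 ± 0.739 to 49.8 ± 24.8 CPM and from 3.16 ± 0.783 to 8.26 ± 2.68 CPM (SD, n = 4 each). Zc3hav1, the zinc-finger antiviral protein, rose by a log2 fold change of 2.45 ± 0.35 (SE, edgeR adjusted p = 0.00281). Eif2ak2, the RNA-activated kinase PKR, rose by 2.36 ± 0.35 (edgeR adjusted p = 0.00306). Oasl1 rose by 4.39 ± 0.60 (edgeR adjusted p = 0.00254) from 11, 3, 2 and 2 read pairs in the sham mice to 236, 63, 94 and 72 in the BCAS mice, and by 5.26 without sham mouse 1. The helicase Dhx33 had a log2 fold change of 0.06 ± 0.09 (edgeR adjusted p = 0.642).

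Below the adaptors, 3 of the 16 kinase scaffolds and transcription factors rose (18.8%, beside 11.0% of all tested genes). Another 6 were higher by adjusted p alone, namely Optn, Traf2, Traf6, Ikbkb, Irf3 and Rela. Irf7, the interferon regulatory factor that interferon itself induces, went from 3.22 ± 1.25 to 55.0 ± 41.2 CPM (SD, n = 4 each), a log2 fold change of 4.10 ± 0.58 (SE, edgeR adjusted p = 0.00280) that was 3.48 without BCAS mouse 1. Irf3, the constitutive factor that TBK1 phosphorylates, had 13.3 ± 2.31 and 22.8 ± 7.11 CPM and a log2 fold change of 0.78 ± 0.23 (edgeR adjusted p = 0.0315), under the fold threshold and with overlapping groups. Nfkb1 rose by 1.66 ± 0.28 (edgeR adjusted p = 0.00465). Ticam1, the adaptor TRIF of Toll-like receptor signalling, rose by 1.21 ± 0.22 (edgeR adjusted p = 0.00601). Without BCAS mouse 1 its log2 fold change was 1.00, under the threshold before rounding. Ikbkg, the NEMO subunit of the IKK complex, had 0.06 ± 0.07 (edgeR adjusted p = 0.492), close to Tbk1.

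All 6 genes through which ZBP1 can drive cell death rose, beside 11.0% of all tested genes, with a median log2 fold change of 2.02. Casp8, which restrains necroptosis and executes apoptosis, went from 3.43 ± 0.643 to 20.2 ± 11.95 CPM (SD, n = 4 each), a log2 fold change of 2.57 ± 0.42 (SE, edgeR adjusted p = 0.00458). Ripk1, a kinase that scaffolds both outcomes, rose by 1.71 ± 0.31 (edgeR adjusted p = 0.00632). Ripk3, the kinase ZBP1 engages directly, had 2, 2, 1 and 2 read pairs in sham and 83, 12, 54 and 17 in BCAS mice, a fitted log2 fold change of 4.21 ± 0.73 (edgeR adjusted p = 0.00531) whose size rests on very few sham reads. Mlkl, the necroptosis effector, had 14, 4, 6 and 7 read pairs in sham and 79, 11, 56 and 39 in BCAS mice. Its groups overlapped, and its log2 fold change of 2.32 ± 0.58 (edgeR adjusted p = 0.0188) lost the call when sham mouse 2, sham mouse 4 or else BCAS mouse 3 was left out (edgeR adjusted p = 0.0580, 0.0560 and 0.0503). Mlkl also lost the call with limma-voom (adjusted p = 0.0556), and limma on log2(CPM + 1) gave it a log2 fold change of 1.09. With edgeR, Casp6 and Fadd rose by 1.05 and 1.18.

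At the output of the pathway, 6 of 7 tested genes rose (85.7%, beside 11.0% of all tested genes), with a median log2 fold change of 2.96. Of the interferon genes themselves only Ifnb1 and Ifna4 were listed, and the others were not examined. Both had 0 counts in every library, which allows up to 0.187 CPM in the library with the smallest scaled total. Cxcl10, a chemokine that interferon induces, went from 0.441 ± 0.202 to 16.7 ± 8.57 CPM (SD, n = 4 each), a log2 fold change of 5.22 ± 0.54 (SE, edgeR adjusted p = 0.00146). Ifit1 and Ifit3, which restrict viral RNA, rose by 3.34 ± 0.42 (edgeR adjusted p = 0.00205) and 2.77 ± 0.35 (edgeR adjusted p = 0.00207), where Ifit3 has the near-identical relative Ifit3b. Isg15 and the chemokine Ccl5 rose by 2.96 and 5.01. Of the receptor chains, Ifnar2 rose from 14.9 ± 0.872 to 50.9 ± 23.1 CPM, whereas Ifnar1 had 55.4 ± 5.49 and 75.4 ± 16.9 CPM and missed the threshold (log2 fold change 0.45 ± 0.15, edgeR adjusted p = 0.0526). In all 31 called pathway genes BCAS mouse 1 was highest and BCAS mouse 2 lowest, as in the members. How common this was among all tested genes was not counted.

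The genes whose pattern was most like a member's were found by the root-mean-square difference of log2 CPM, each gene relative to its own sham mean, over the 8 libraries, among 12430 genes whose counts averaged 100 or more. For Tmem173 they were Rnf213, at 0.149 log2 units, Bin2 at 0.155 and Alox5ap at 0.167. For Mavs they were Nod1 at 0.0778, Ets1 at 0.0936 and Lima1 at 0.113, and for Ifih1 they included Bmf at 0.115 and Ttf2 at 0.131. The low-count members had looser matches. Those of Cgas were Ifit3b at 0.281, Tlr9 at 0.293 and Rubcnl at 0.296, and those of Zbp1 were Oas1a at 0.333, Ms4a6c at 0.334 and Ifi213 at 0.362. Counting error is larger at low counts and enters these distances.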

How the data were processed

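RNA-seq of the right cerebral cortex gave 1 library for each of 8 mice. Per the labels and methods, the authors trimmed the reads with Trim Galore, aligned them to mm10 with HISAT2, sorted them with SAMtools 1.9 and deposited raw counts of read pairs per gene from featureCounts, without normalization. The table headers name featureCounts 2.0.1 and GENCODE vM20 and give no option for strand or for pairs on more than 1 gene, whereas the labels name featureCounts 1.6.3. The deposited gene length column was used for levels per kilobase. The submitters' processing notes also name FastQC and DESeq2 1.16.1. Genes were matched by stable identifier.

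The counts were analysed in R 4.3.3 with edgeR 4.0.16 (TMM, filterByExpr with a minimum count of 10 and a minimum total of 15, quasi-likelihood F-test without covariates). Benjamini-Hochberg adjustment ran over all tested genes. The standard error is the fold change over the square root of its F. Ratios added 0.5 to both counts. Similar patterns were sought on log2 CPM (prior count 2). The alternatives were other normalizations, filters and thresholds, DESeq2 1.42.0, limma 3.58.1 (voom, and log2(CPM + 1)), a replicate block and leaving out each mouse. The procedures were tested on simulated data. Plots were made in Python 3.11.15 (matplotlib 3.10.9).

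The members, lists and tests were chosen with earlier results of these data known. Named were all members, the 3 genes with the smallest and the 1 with the largest p in each list, and the 3 nearest patterns for 5 members. A few genes of the marker lists and of the nearest patterns are not reported here. Other pathway genes named singly were chosen after their values were seen. Same-numbered sham and BCAS mice did not deviate together, so the numbers were not taken to pair the mice.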

Additional observations from a re-analysis of the deposited data

How the results depend on the processing

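The 8 members called higher were called in every alternative normalization, filter and test and in each of the 8 fits without 1 mouse, except that Zbp1 could not be tested when 10 counts were required in every library, which also left out Oasl1, Ripk3, Mlkl, Cxcl10 and Ccl5 and left 26 of the 31 pathway calls. When edgeR tested for a log2 fold change beyond 1, 5 members were called, namely Tmem173, Zbp1, Ddx58, Dhx58 and Ikbke, and 19 of the pathway genes in place of 31. Cgas (adjusted p = 0.0669), Ifih1 (0.135) and Mavs (0.554) were then not called. The pathway count was 27 to 33 without 1 mouse each. Mlkl lost its call with limma-voom (adjusted p = 0.0556). Fold changes were smaller with limma on log2(CPM + 1), where the added 1 understates those of low genes, at log2 values of 3.27 for Zbp1, 2.28 for Dhx58, 1.97 for Ikbke and 1.70 for Cgas, and of 1.31 for Ripk3, 1.09 for Mlkl, 2.31 for Oasl1, 3.46 for Cxcl10, 3.44 for Trim30a, 3.50 for Irf7 and 2.70 for Ifit1. Without BCAS mouse 1 edgeR gave 4.45 for Zbp1, 2.64 for Dhx58 and 3.48 for Irf7, and without sham mouse 1 it gave 5.26 for Oasl1.

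The log2 difference of the Cgas to Tmem173 ratio ran from -0.63 to 0.10 without 1 mouse each, turning to 0.10 without sham mouse 1. That of Ifih1 to Mavs ran from 0.28 to 0.42, of Ddx58 to Mavs from 0.88 to 1.18, of Dhx58 to Ifih1 from 1.25 to 1.61 and of Ikbke to Tbk1 from 2.13 to 2.89. With 7 mice the exact tests gave adjusted p of up to 0.1429 for Ifih1 to Mavs, 0.0857 to 0.8857 for Cgas to Tmem173 and up to 0.0714 for the other 3.

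Replicate numbers are shared between the groups, with correlations of same-numbered mice of -0.05, -0.10, -0.01 and 0.00. With the replicate number as a block, 8 members and 29 pathway genes were called, and 0 fell. The blocked ratio differences stayed at -0.19, 0.36, 1.00, 1.37 and 2.45, but an exact sign-flip test of 4 pairs cannot go below 0.125, and the last 4 had an adjusted p of 0.1562.

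Depth was a limit for Zbp1, Cgas and Dhx58, with as few as 3, 11 and 17 read pairs in a sham library.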

Other observations

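The loss of Trex1 was shared by other genes of the same layout. Of 176 such protein-coding genes, 138 (78.4%) had 0 counts in all 8 libraries, Trex1 among them. Of 6256 genes with part of their exon bases shared, 312 (4.99%) were at 0, and of 15489 with none shared, 3193 (20.6%). A 0 for a gene of the first kind gives no level in these tables.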
